A study of Mus musculus with 3 samples.

Results

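CD4 T cells of the mouse spleen were set against mouse embryonic stem (ES) cells of the same strain, over all genes that the array could name. The array held 45037 probe sets, of which 34945 carried 1 gene symbol, and those stood for 18193 genes, all of which entered the comparison. Of these, 12325 were measured, meaning that the signal of at least 1 of both cell types lay above a floor of 95.0, the median of all deposited values. The CD4 T cells came from C57BL/6 mice aged 6 to 8 weeks, were isolated from the spleen with magnetic beads (purity above 98%, as labelled), and received no treatment that the labels name. The ES cells were the C57BL/6 line B6N-22, grown with leukemia inhibitory factor (LIF) on mouse embryonic fibroblasts that mitomycin C had stopped from dividing. Splenic B220 B cells, from C57BL/6 mice of the same age and purified in the same way to the same stated purity, served as the second lymphocyte. Each population was measured on 1 array. The sources used here do not say whether feeder fibroblasts were removed from the ES cells, nor whether several mice were pooled.

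ES cells divide rapidly, hold one another in epithelial colonies through cadherins and tight junctions, and are kept undifferentiated by LIF, while the FGF they make drives them towards differentiation. Rapid division needs a steady supply of nucleotides, ribosomes and protein. A resting CD4 T cell is small, divides rarely until its antigen receptor is engaged, and crawls between blood and lymphoid tissue with integrins, chemokine receptors and a cortical actin network. It carries receptors for cytokines, TNF family ligands and other immune cells, and holds inhibitors of growth and of inflammatory signalling at a high level until it is activated.

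Each gene was read from its brightest probe set, values below the floor were raised to it, and the difference was taken as log2 signal in T cells minus log2 signal in ES cells. Where one array was below the floor the fold can only be a minimum, and it is given as "at least". Of the 12325 measured genes, 1332 (10.8%) had a T cell signal 4-fold or more above that of ES cells and 1252 (10.2%) one 4-fold or more below it, while 52.6% lay within 2-fold. Of the higher genes, 587 have a bound rather than a measured fold, as have 621 of the lower ones. The median over all measured genes was -0.11. Higher genes were 51.5% of the genes past 4-fold, but 38.6% after each array was scaled to its 75th percentile, which moved the median of all genes to -0.42, and 44.4% after quantile normalization, which moved it to -0.26. With 1 array a side no replicate error could be computed, so no test was made and no p-value is given, since the number of arrays sets the precision. Probe sets of one gene were compared in 5792 genes with a second measured one. The brightest and the next differed by a median of 0.54 on the log2 scale, with an SD of 1.09. Both sit on the same arrays, so this spread does not measure error between arrays or samples. It serves below only as a size to set shifts against. A lower signal can come from fewer cells of a type or from less RNA per cell, and these cannot be told apart in bulk RNA.

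The labels were set against markers of each cell type. All 14 CD4 T cell markers on the array were above the floor in T cells, each by 4-fold or more over ES cells, and 4 of them were above the floor in ES cells. All 16 ES cell markers were above the floor in ES cells, and 13 of them, including Nanog and Sox2, were below it in T cells. Klf2, which resting T cells also express, was the ES cell marker that was brighter in T cells. Markers of other cells were also present. Macrophage markers summed to 72498 on the T cell array, 29947 on the B cell array and 4504 on the ES cell array, and 12 of the 14 passed 4-fold over ES cells. Csf1r, the receptor of the macrophage growth factor, had signals of 19275.0 in T cells, 8929.9 in B cells and 208.9 in ES cells. B cell markers summed to 29325 in T cells, 216868 in B cells and 1096 in ES cells, and Ighm alone gave 20055.9 of the T cell sum. The neutrophil sum was 15080 in T cells and 368 in ES cells, mostly from S100a8 and S100a9, while Mpo and Ltf were below the floor in T cells. On the ES cell side, all 18 fibroblast markers were above the floor, with a sum of 93562, against 15247 in T cells, where 15 of the 18 were below it. Markers of NK and CD8 T cells summed to 10486 in T cells and 676 in ES cells, with 6 of 11 at least 4-fold higher, and those of dendritic cells to 7093 and 1489, with 4 of 9. Plasma cell markers summed to 20181 and 8487, with 3 of 7 higher and 1 lower. The part of these cells in the results was not tested. That holds for fibroblasts in the lower genes of every class as well. The erythroid and platelet sums were low on both arrays, at 610 and 943 in T cells and 249 and 521 in ES cells.

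**Figure D1:**
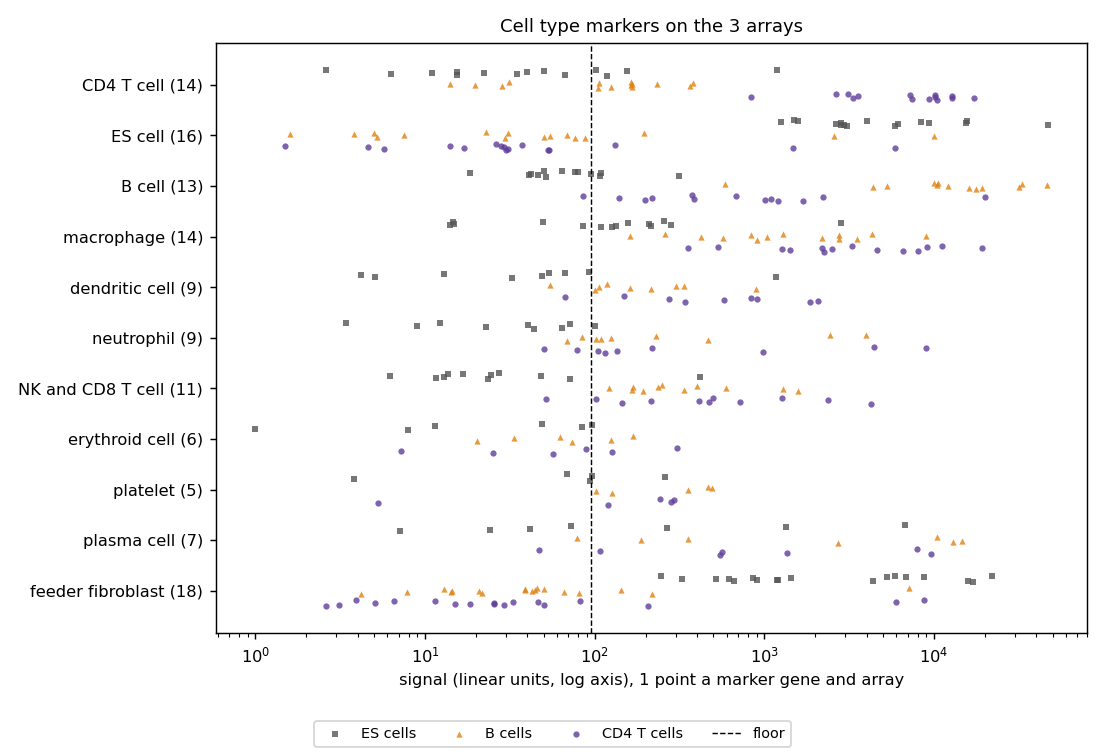
Signal of each marker gene of 11 cell types on the ES cell (squares), B cell (triangles) and CD4 T cell (circles) arrays, on a log axis in linear signal units, with the floor of 95.0 as a dashed line and values below 1 drawn at 1; numbers in brackets are markers on the array. Each T cell marker is brightest on the T cell array, macrophage markers lie above the floor on both lymphocyte arrays, and fibroblast markers lie above it on the ES cell array.

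Beyond the genes of cell identity, 61 functional classes were described, each by the number of its measured members past 4-fold, called higher or lower in T cells from here on, and by its median. Members below the floor on one array enter a median at their bound, so the size of a median is a minimum in classes with many such members. The classes were drawn up with earlier results of these data known, and some by cell type, so their order describes these lists only. Over all measured genes 10.8% were higher, 10.2% lower and 52.6% within 2-fold, and the class counts stand beside these shares. The classes with the highest medians were those of the leukocyte actin cytoskeleton, the SLAM receptors, MHC class I presentation, interferon-stimulated genes and chemokine receptors. The lowest medians were those of extracellular matrix, epithelial junctions, DNA replication, ribosome biogenesis and aminoacyl-tRNA synthetases.

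**Figure D2:**
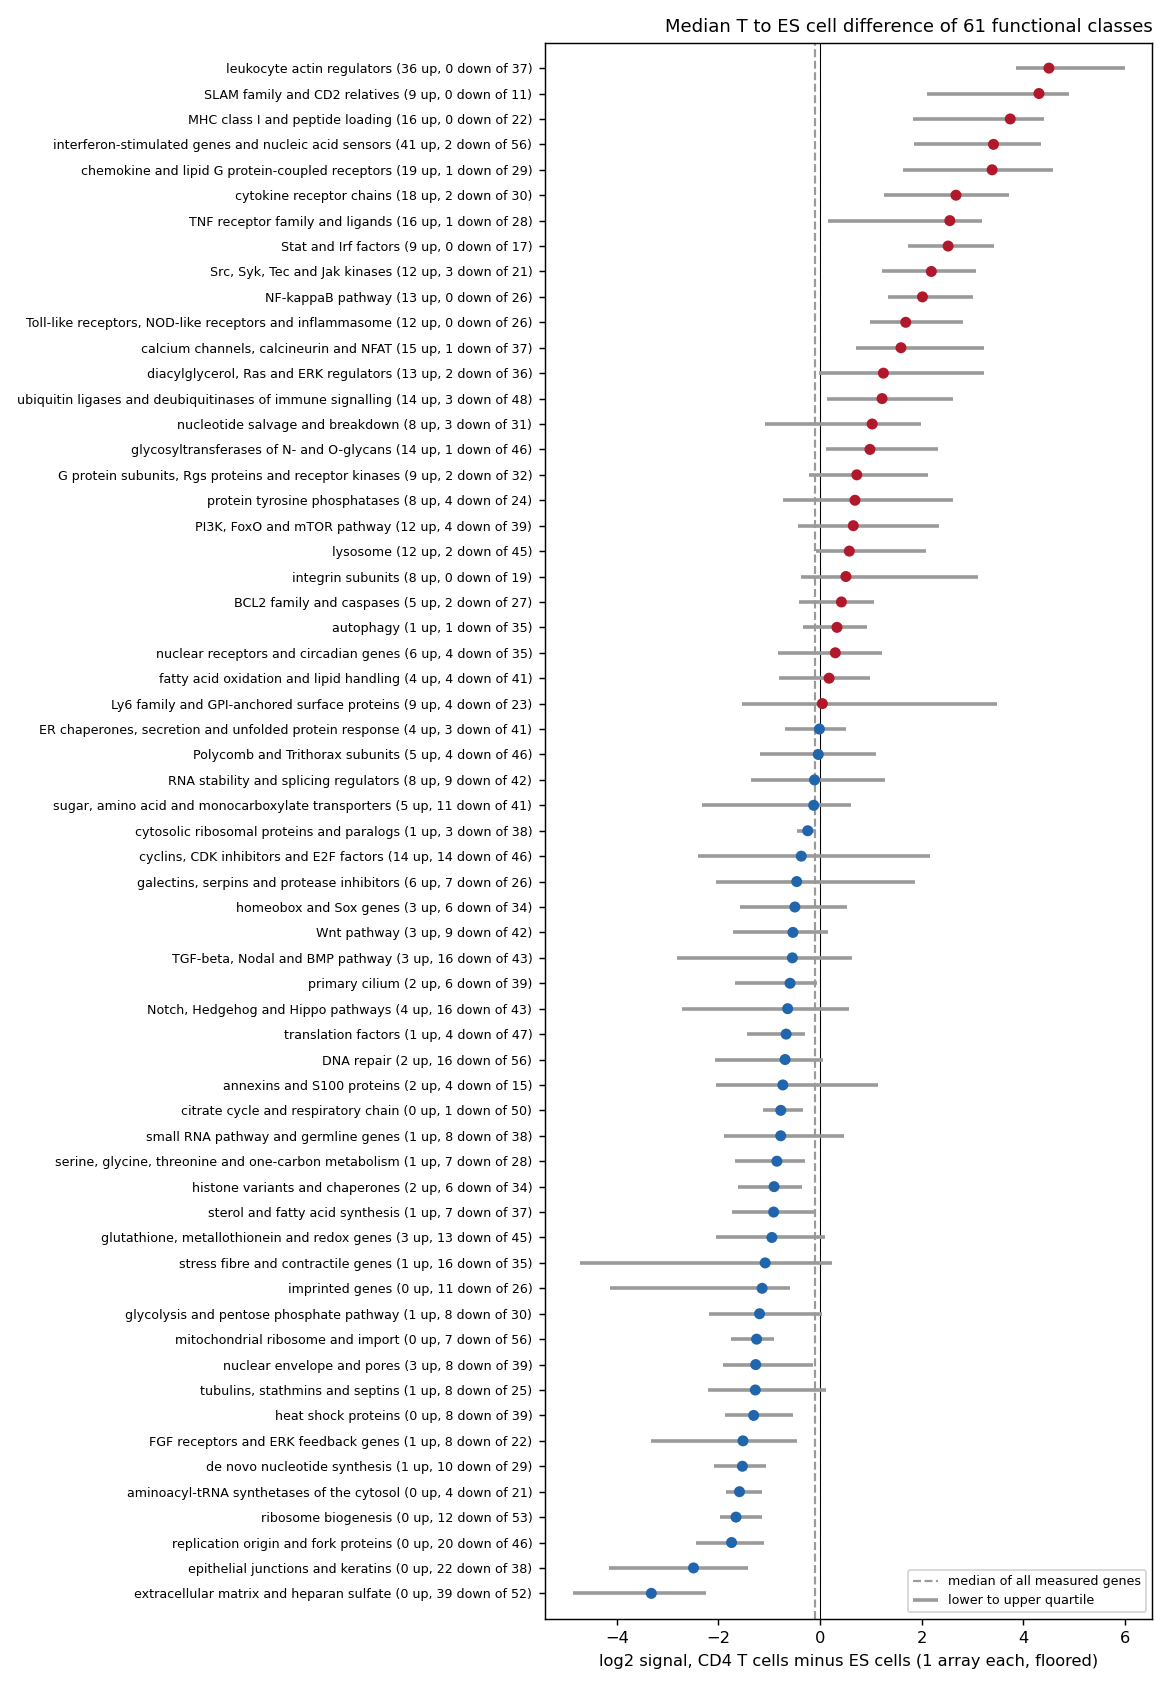
Median (point) and lower to upper quartile (bar) of the log2 signal difference, CD4 T cells minus ES cells, for the measured members of 61 functional classes, with the counts at least 4-fold up and down beside each name; red points are above 0, blue below, and the dashed line is the median of all measured genes, -0.11. Leukocyte actin regulators stand at the top with a median of 4.50 and extracellular matrix genes at the bottom with -3.32.

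The cytoskeleton differed member by member between the cells. Of 37 measured leukocyte actin regulators, 36 were higher and 0 lower, and the median difference was 4.50 on the log2 scale. Cytip, an adaptor that binds the integrin-activating protein cytohesin, had signals of 21841.6 in T cells, 20338.0 in B cells and 56.7 in ES cells. Fermt3, the blood-cell kindlin that activates integrins, had 13073.6, 13522.7 and 94.8 in the same order. Coro1a, an actin-binding coronin needed for T cell survival, had 24395.8, 28989.5 and 223.1, which is 109-fold higher in T than in ES cells. All 3 were as bright on the B cell array as on the T cell array, and Cytip and Fermt3 were at least 229.9-fold and at least 138-fold higher in T than in ES cells. The 1 member that did not pass, Capg, differed by 0.71.

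Genes of contractile stress fibres went the other way. Of 35 measured, 16 were lower and 1 higher, and the median was -1.08. Csrp2, a LIM protein of muscle and fibroblasts, had signals of 7280.6, 447.7 and 97.5 in ES, B and T cells, 74.7-fold lower in T cells. Cald1, the actin-binding caldesmon, had signals of 9960.0, 66.3 and 32.6 in ES, B and T cells, at least 105-fold lower. Acta2, smooth muscle actin, had 16853.6 in ES cells and 207.2 in T cells, 81.3-fold lower. Cald1, Acta2 and Tagln2 each have another probe set within 2-fold. The exception, Tagln2, a small calponin-type actin binder of lymphocytes, was 4.35-fold higher, with 5079.1 in T cells, 2234.7 in B cells and 1168.4 in ES cells. Acta2 and Tagln are also fibroblast markers, and the part of the fibroblast signal on the ES cell array in this class was not tested.

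Tubulins, stathmins and septins had a median of -1.27, with 8 of 25 lower and 1 higher. Stmn2, a stathmin that destabilises microtubules, had 6623.4 in ES cells, and was below the floor in both lymphocytes, at least 69.7-fold lower. Tubb6, a beta-tubulin isotype, was at least 36.2-fold lower and the microtubule-associated gene Map1b at least 12.8-fold, although both have another probe set within 2-fold. Septin6, a filament-forming GTPase, was the gene that was higher, 11.7-fold, with 3374.5 in T cells, 2853.9 in B cells and 288.4 in ES cells.

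The 55 pairs of related genes, 1 typical of leukocytes and 1 of other cells, were compared member by member. They were chosen with earlier results of these data known, so the counts describe these pairs only. In 18 pairs the leukocyte member was higher in T cells while its relative was lower by 2-fold or more, and in 11 the relative lay within 2-fold. Both were higher in 6, the leukocyte member did not reach 4-fold in 10, and 10 pairs could not be compared. Fermt2, the kindlin of adherent cells, had 3367.4 in ES cells and 18.4 in T cells, at least 35.5-fold lower, where its blood-cell relative Fermt3 was higher. Lcp1, the leukocyte actin bundler L-plastin, had 10328.8 in T cells and 126.5 in ES cells, while Pls3, T-plastin, had 109.9 and 1602.9, so that one was 81.7-fold higher and the other 14.6-fold lower. Nckap1l and Nckap1, alternative subunits of the WAVE complex that starts actin branching, were 18.5-fold higher and 26.7-fold lower. Hcls1, the blood-cell cortactin, was at least 28.3-fold higher, with 2692.5 in T cells and 4.3 in ES cells, and Cttn, cortactin itself, 47.9-fold lower, with 228.4 and 10938.2.

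Exchange factors and adhesion adaptors were among the opposite pairs too. Dock2, which switches on Rac in migrating lymphocytes, had 6378.7 in T cells and 9.0 in ES cells, and Dock1, its counterpart elsewhere, 123.1 and 1336.5. Evl was 22.1-fold higher in T cells and Enah at least 179.0-fold lower, both being Ena/VASP proteins that lengthen actin filaments. Parvg and Parva, parvins of integrin adhesions, were at least 13.8-fold higher and at least 5.25-fold lower. The other probe sets of Fermt2, Cttn, Dock1 and Enah include 1 within 2-fold each. Rac2, the blood-cell Rac GTPase, was at least 121-fold higher by its brightest probe set and 1.63 on the log2 scale by the other, while Rac1, the form found in most cells, had 6479.6 in T cells and 5993.7 in ES cells and stayed within 2-fold. Itga4 and Itgb2, integrin chains of leukocytes, were 42.0-fold and at least 105-fold higher, while Itga6 and Itgb5 lay within 2-fold.

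Pairs outside the cytoskeleton also held opposite members. Prkcq, protein kinase C theta of the T cell synapse, had 5409.4 in T cells, 79.6 in B cells and 7.4 in ES cells, and Prkci, the atypical form of polarised epithelia, 693.1, 987.2 and 3665.8. Prkci and Atp2a3 have another probe set within 2-fold. Atp2a3, the calcium pump of blood cells, was 12.7-fold higher and Atp2a2, the pump of most cells, 3.35-fold lower by its brightest probe set but higher by 1.43 on the log2 scale by another. Ccnd2, a D-type cyclin, was 4.57-fold higher and Ccnd1 2.30-fold lower. Rassf5, which links Ras-type GTPases to integrins, was 62.9-fold higher and Rassf7 2.45-fold lower. Other pairs did not separate by their brightest probe sets. Pik3cd, the leukocyte PI3 kinase subunit, had 13083.7 in ES cells and 13302.1 in T cells, but another of its probe sets was higher in T cells by 5.13 on the log2 scale. Plcg2 differed by 0.04, and Jak3 by 1.82 while Jak1 differed by 3.01.

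**Figure D3:**
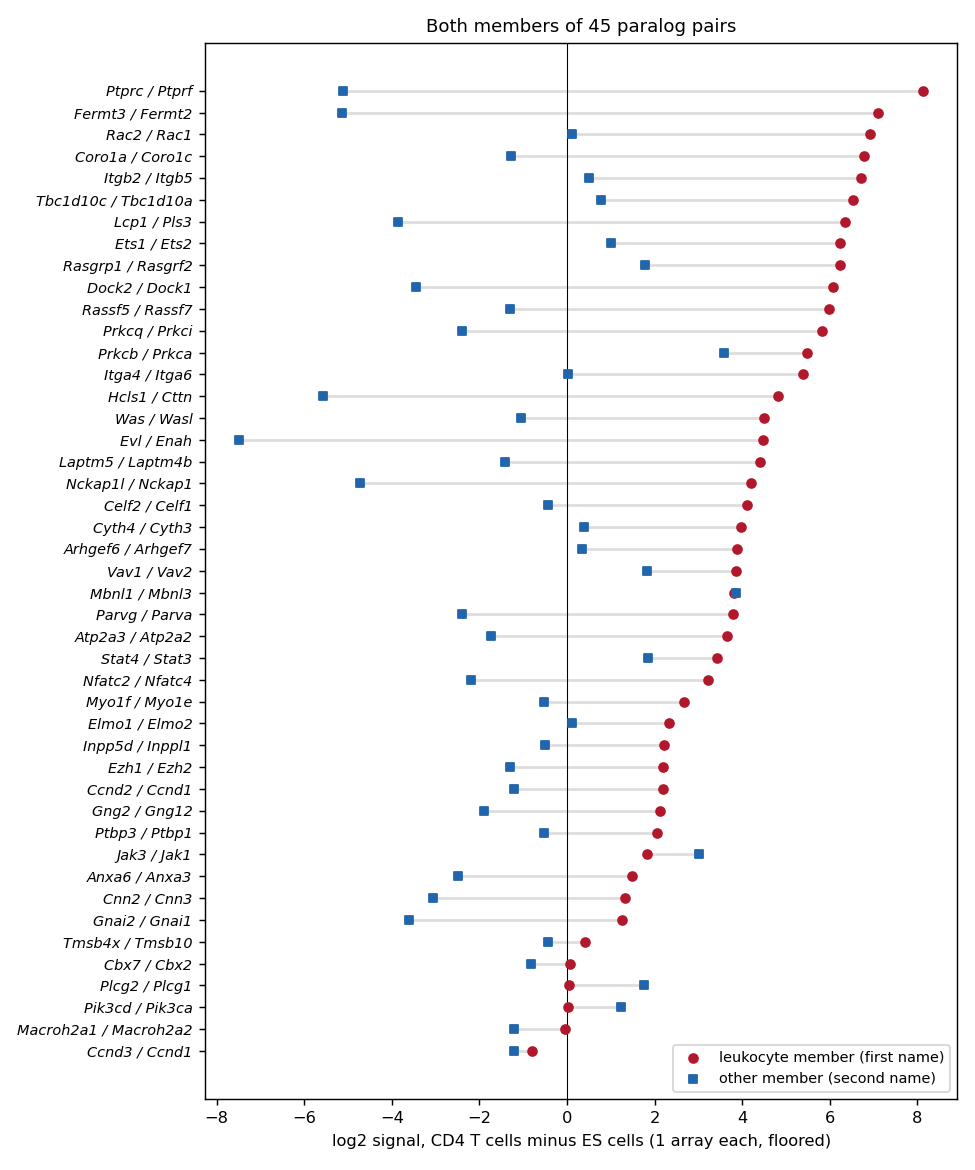
Log2 signal difference, CD4 T cells minus ES cells, for both members of the 45 paralog pairs measured in full, with the leukocyte member as a circle and the other as a square. In most pairs the circle lies to the right of the square, most widely for Ptprc and Ptprf, and Jak3, Plcg2, Pik3cd and Mbnl1 are the pairs with the square to the right.

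Receptors for chemoattractants were among the classes furthest up. Of 29 measured chemokine and lipid receptors, 19 were higher and 1 lower, and the median was 3.39. P2ry10, a receptor for lysophosphatidylserine, had 4820.1 in T cells, 6980.6 in B cells and 23.6 in ES cells. Cxcr3, the receptor that guides effector T cells to interferon-induced chemokines, had 3644.7, 539.0 and 65.2, and was at least 38.4-fold higher than in ES cells. The lower gene, S1pr3, a sphingosine-1-phosphate receptor, had 251.1 in T cells, 2809.4 in B cells and 1244.3 in ES cells, so that it was lower than on both other arrays. Downstream, 9 of 32 G protein subunits, Rgs proteins and receptor kinases were higher and 2 lower, and the median was 0.72. Rgs1, Rgs2 and Rgs10, which shorten G protein signals, were at least 63.7-fold, 44.5-fold and 32.2-fold higher, and Rgs10 had 6087.4 in T cells against 1291.5 in B cells. Gnai1 and Gng11, which encode G protein subunits, were at least 12.2-fold and 9.43-fold lower. S1pr3, Rgs2 and Gnai1 have a probe set within 2-fold.

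Cytokine receptor chains were higher in 18 of 30 and lower in 2, with a median of 2.67. Il7r, the receptor of the cytokine that keeps resting T cells alive, had 12790.8 in T cells, 233.3 in B cells and 49.9 in ES cells. Il18r1, which with Il18rap binds interleukin-18, had 3521.2, 117.9 and 6.2, at least 37.1-fold higher than in ES cells, and Il6ra was at least 30.9-fold higher. Osmr and Ghr, the receptors of oncostatin M and growth hormone, were at least 4.85-fold and at least 8.64-fold lower. Lifr, which receives the LIF added to the ES cell medium, had 1111.8 in ES cells and 278.6 in T cells, just short of 4-fold. Osmr and Ghr have another probe set with a smaller difference, within 2-fold.

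Among TNF receptors and ligands, 16 of 28 were higher and 1 lower, and the median was 2.55. Ltb, which shapes lymphoid organs, had 20564.0 in T cells, 25488.3 in B cells and 178.1 in ES cells, 115.5-fold higher. Cd27, a costimulatory receptor, had 3466.7, 92.2 and 25.5, and Tnfrsf18, known as GITR, 3219.2, 987.9 and 22.9. Tnfrsf12a, the TWEAK receptor of growing tissue cells, was 8.71-fold lower in T cells. The SLAM and CD2 relatives, which pair between touching immune cells, were higher in 9 of 11 and lower in 0, with a median of 4.31, led by Cd2 at least 92.0-fold and Cd48 at least 79.6-fold. Ly6 and other GPI-anchored proteins were split, with 9 of 23 higher and 4 lower and a median of 0.05 that turned negative under both other scalings and with the floor at the 35th percentile. Izumo1r, folate receptor 4, had 3338.8 in T cells and 60.5 in ES cells, and Folr1, folate receptor 1, 32.8 and 2817.6.

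Integrins were higher in 8 of 19 and lower in 0, with a median of 0.51. The leukocyte chains Itgal and Itgb7 had 7679.0 and 4792.1 in T cells against 64.4 and 220.7 in ES cells. Among galectins, serpins and protease inhibitors, 6 of 26 were higher and 7 lower, and the median was -0.46. Timp1 and Timp3, inhibitors of matrix metalloproteinases, were at least 68.2-fold and at least 58.5-fold lower, and Serpinh1, the collagen chaperone, at least 30.4-fold. The part of feeder fibroblasts in these lower values was not tested. Slpi and Cst7, inhibitors of leukocyte proteases, were 41.5-fold and at least 11.9-fold higher. Annexins and S100 proteins had 2 of 15 higher, both the neutrophil genes S100a8 and S100a9, and 4 lower, and the median was -0.73. S100a8 had 8944.6 in T cells, 3966.1 in B cells and 12.3 in ES cells, and the part of neutrophil RNA in these values was not tested.

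Glycosyltransferases were higher in 14 of 46 and lower in 1, with a median of 0.98. The sialyltransferase genes led. St8sia4, which adds polysialic acid, had 4794.2 in T cells, 6761.8 in B cells and 34.3 in ES cells, and St8sia6 3691.1, 1274.4 and 124.0. St8sia1, which makes the ganglioside GD3, had 2440.2, 64.0 and 79.7, and Cmah, which hydroxylates sialic acid, 2585.9, 3749.4 and 7.7. These folds against ES cells ran from at least 25.7 for St8sia1 to at least 50.5 for St8sia4. St8sia4 and Cmah were thus bright in both lymphocytes, while St8sia1 was above the floor in T cells alone. Cmah has a probe set within 2-fold.

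Among signalling genes behind the antigen receptor, more were higher than lower. Of 21 Src, Syk, Tec and Jak kinases, 12 were higher and 3 lower, and the median was 2.19. Txk, a Tec kinase of T cells, had 1939.9 in T cells, 183.4 in B cells and 11.4 in ES cells, and Fyn, a Src kinase of the receptor complex, 4795.8, 746.8 and 260.9. The kinases lower in T cells were Yes1 (at least 11.8-fold), Fer (at least 6.02-fold) and Src itself (at least 4.34-fold), each with another probe set within 2-fold. Of 37 calcium channel, calcineurin and NFAT genes, 15 were higher and 1 lower, and the median was 1.59. Kcnn4, the potassium channel that sustains calcium entry in activated T cells, had 6669.6, 765.5 and 124.8, and Itpkb, which phosphorylates inositol trisphosphate, 3255.1, 1533.7 and 10.8. Of 36 diacylglycerol, Ras and ERK regulators, 13 were higher and 2 lower, and the median was 1.25. Rasgrp1, which couples diacylglycerol to Ras, had 7131.1, 3346.0 and 58.3, though 1 of its probe sets lay within 2-fold. Eras, the Ras of ES cells, had 2116.8 in ES cells and was below the floor in T cells.

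The FGF pathway was the signalling class furthest down. Of its 22 receptors and feedback genes, 8 were lower and 1 higher, and the median was -1.52. Etv5, a transcription factor that FGF signals induce, had signals of 5464.5, 174.6 and 384.5 in ES, B and T cells, 14.2-fold lower. Spry2 and Spry4, feedback inhibitors, were at least 27.4-fold and at least 12.2-fold lower, and within 2-fold by another probe set each. Dusp5, a nuclear ERK phosphatase, was 6.74-fold higher, with 1669.8 in T cells, 661.5 in B cells and 247.6 in ES cells.

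Phosphatases went both ways. Of 24 protein tyrosine phosphatases, 8 were higher and 4 lower, and the median was 0.69. Ptpn22, which restrains receptor signals in lymphocytes, had 5201.4 in T cells, 1659.8 in B cells and 9.6 in ES cells, and Ptpn18 was 90.3-fold higher by its brightest probe set. The 4 lower ones were Ptprf, Ptprg, Ptprk and Ptpn14, and Ptprk and Ptpn14 have a probe set within 2-fold. Ptpn14 was not low in B cells, with 918.5, 702.3 and 89.0 in ES, B and T cells. Of 39 PI3K, FoxO and mTOR genes, 12 were higher and 4 lower, and the median was 0.65. The higher ones included antagonists of the pathway. Pik3ip1, an inhibitor of PI3 kinase, was 16.1-fold higher, the lipid phosphatase gene Inpp4b at least 17.2-fold and Sesn1, a sestrin that restrains mTORC1, 32.9-fold. Eif4ebp1, the translation repressor that mTORC1 inactivates, was 14.6-fold lower, with 582.1 in T cells and 8471.6 in ES cells, but by another probe set it differed by 0.62 in the other direction.

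Regulators of inflammatory signalling followed. Of 48 ubiquitin ligases and deubiquitinases of immune signalling, 14 were higher and 3 lower, and the median was 1.22. Tnfaip3, the A20 enzyme that limits NF-kappaB, had 7111.2 in T cells, 1992.8 in B cells and 192.8 in ES cells, and Traf1 2563.6, 1196.5 and 67.9. Nedd4, Socs2 and Trim28 were 28.1-fold, 8.89-fold and 5.82-fold lower, Socs2 with another probe set within 2-fold. Trim28, which silences retroviral elements in ES cells, still had 3702.3 in T cells, against 21545.1 in ES cells. NF-kappaB genes were higher in 13 of 26 and lower in 0, with a median of 2.01. Ikbke, an inhibitor kinase that interferon induces, had 4577.2 in T cells against 317.7 in B cells and 32.5 in ES cells. Stat and Irf factors were higher in 9 of 17 and lower in 0, with a median of 2.52, among them Irf7 at least 13.4-fold and Irf2 at least 11.3-fold. Of 27 BCL2 family and caspase genes, 5 were higher, 2 lower and 15 within 2-fold, the last near the 52.6% of all measured genes. The median of the class was 0.42. Bcl2, which keeps lymphocytes alive, was 25.2-fold higher with 2912.9 in T cells and 115.6 in ES cells, and Bnip3, a hypoxia-induced relative, 14.9-fold lower.

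Interferon-stimulated genes were higher in 41 of 56 and lower in 2, with a median of 3.41. Ifi47 and Igtp, immunity-related GTPases, had 8645.1 and 8401.4 in T cells, against 4185.6 and 2698.0 in B cells and 51.4 and 66.5 in ES cells. Ifitm1 and Ifitm2, antiviral membrane proteins, were the lower members, 8.41-fold and 7.12-fold, and were brighter in ES cells, at 6599.4 and 4598.3, than on either lymphocyte array. Of 22 genes of MHC class I and its peptide loading, 16 were higher and 0 lower, and the median was 3.74. Nlrc5, the transactivator of class I genes, had 5671.5 in T cells, 2554.3 in B cells and 23.9 in ES cells, and Psmb8, an immunoproteasome subunit, 8906.4, 9305.3 and 84.6. Toll-like receptor, NOD-like receptor and inflammasome genes were higher in 12 of 26, with a median of 1.69. Il1b, a cytokine of macrophages and neutrophils, had 3268.0 in T cells, and Ly86, a partner of the receptor RP105 on B cells, 3066.9 in T cells and 16474.4 in B cells. The part of macrophage and B cell RNA in that class was not tested.

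Lysosomal genes were higher in 12 of 45 and lower in 2, with a median of 0.58. The proteases divided. Ctss, which cuts the MHC class II invariant chain, had 14488.4 in T cells, 21598.8 in B cells and 270.4 in ES cells. Ctsw, a cathepsin of T and NK cells, had 1983.0, 371.4 and 49.1, while Ctsl had 2131.3, 891.6 and 14441.9 and was 6.78-fold lower in T than in ES cells. Macrophages are rich in lysosomal enzymes, and their part in these values was not tested. Autophagy genes hardly differed, with 23 of 35 within 2-fold, 1 higher and 1 lower. The pair that passed were the starting kinases, Ulk2 7.35-fold higher and Ulk1 4.02-fold lower. Ctsl and Ulk2 have a probe set within 2-fold.

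Most metabolic classes had more genes lower than higher in T cells. De novo nucleotide synthesis had 10 of 29 genes lower and 1 higher, and the median was -1.53. Ctps, which makes CTP, had signals of 4965.6, 1001.4 and 474.2 in ES, B and T cells, 10.5-fold lower, and Rrm2, the ribonucleotide reductase subunit of dividing cells, was 6.06-fold lower. Prps2, which makes the ribose donor for nucleotides, was 4.96-fold higher. Prps2 and Nt5e have a probe set within 2-fold. Salvage and breakdown of nucleotides had 8 of 31 higher and 3 lower, and the median was 1.03. Nt5e, the ecto-enzyme CD73 that makes adenosine, had 1887.6 in T cells, 172.2 in B cells and 159.4 in ES cells, and Samhd1, which destroys dNTPs, 6445.6, 7335.0 and 782.4. Upp1, uridine phosphorylase, was the strongest exception, at least 103-fold lower, with 9762.6 in ES cells and 20.4 in T cells.

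Of 30 genes of glycolysis and the pentose phosphate pathway, 8 were lower and 1 higher, with a median of -1.19. Hk2, the inducible hexokinase, had signals of 6402.2, 351.3 and 366.3 in ES, B and T cells, 17.5-fold lower, and Tpi1 was 10.2-fold lower. Hk3, a hexokinase of myeloid cells, was at least 6.14-fold higher, at a signal of 583.3, but within 2-fold by another probe set. Citrate cycle and respiratory chain genes differed little, with 31 of 50 within 2-fold, 1 lower and 0 higher, yet their median was -0.77. In serine, glycine and one-carbon metabolism, 7 of 28 were lower and 1 higher, with a median of -0.85. Gldc, the glycine cleavage enzyme, had 2380.5 in ES cells against 7.8 in T cells, and Shmt1 and Mthfd1 were 13.8-fold and 10.7-fold lower.

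Sterol and fatty acid synthesis had 7 of 37 lower and 1 higher, with a median of -0.91, Elovl6 being 7.13-fold and Fdps 6.63-fold lower. Fatty acid oxidation and lipid handling genes had 4 of 41 higher and 4 lower, 9.76% each, near the 10.8% and 10.2% of all measured genes. Their median of 0.18 turned negative under both other scalings and with the floor at the 65th percentile. Fabp3, a fatty acid carrier, had 12590.6 in ES cells against 41.7 in T cells, and Alox5ap, needed for leukotriene synthesis, 181.8 and 1861.4. Fdps and Acss2 have a probe set within 2-fold. Acss2, which makes acetyl-CoA from acetate, was the higher gene of the synthesis class, at 1154.1 in T cells against 294.4 in B cells and 263.6 in ES cells. Among transporters of sugars, amino acids and monocarboxylates, 11 of 41 were lower and 5 higher, with a median of -0.13. Slc7a3 and Slc38a4, amino acid carriers, were at least 47.9-fold and at least 24.9-fold lower. Slc40a1, the iron exporter ferroportin of splenic macrophages, was 10.4-fold higher, with 13303.3 in T cells, and the part of macrophage RNA in it was not tested. Glutathione, metallothionein and redox genes were lower in 13 of 45 and higher in 3, with a median of -0.95. Gsta4, a glutathione transferase that detoxifies lipid aldehydes, had signals of 12858.5, 7.9 and 173.2 in ES, B and T cells, 74.2-fold lower. Mgst2, a microsomal relative, was at least 32.2-fold higher, with 3055.9 in T cells and 89.4 in ES cells.

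Genes that build the ribosome and charge tRNAs had lower medians than the ribosomal proteins. Ribosome biogenesis genes had 12 of 53 lower and 0 higher, with a median of -1.65, and their lower to upper quartile ran from -1.96 to -1.14. Nhp2, a subunit of the particles that modify ribosomal RNA, had signals of 19748.8, 4116.3 and 2426.3 in ES, B and T cells, 8.14-fold lower. Aminoacyl-tRNA synthetases of the cytosol had a median of -1.59, with 4 of 21 lower, and mitochondrial ribosome and import genes -1.25, with 7 of 56 lower. Translation factors had a median of -0.67, with 25 of 47 within 2-fold, near the 52.6% of all measured genes. Cytosolic ribosomal proteins differed least among these translation classes, with 32 of 38 within 2-fold and a median of -0.24 that became 0.05 under quantile normalization. Those that passed were mainly second copies. Rps4l had 19408.1 in ES cells and 108.6 in T cells, 179-fold lower, Rpl39l was at least 16.6-fold lower and Rps27l 4.66-fold lower, while Rps27 was 4.31-fold higher. These genes have near-identical relatives, so probe sets may read more than 1 of them.

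Heat shock proteins were lower in 8 of 39 and higher in 0, with a median of -1.31. Hspd1, the mitochondrial chaperonin, had signals of 29547.8, 6042.8 and 4691.3 in ES, B and T cells, 6.30-fold lower. Genes of the endoplasmic reticulum and the unfolded protein response lay within 2-fold in 26 of 41, and their median of -0.01 turned positive under quantile normalization and with probe sets averaged. Asns, asparagine synthetase, was the widest exception, with signals of 10384.7, 163.2 and 111.9 in ES, B and T cells, 92.8-fold lower, and Sec11c, a signal peptidase subunit, was 10.9-fold higher.

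The cell cycle classes separated into a lower and a higher set. Of 46 replication origin and fork proteins, 20 were lower and 0 higher, and the median was -1.74. Gins1, part of the replicative helicase, had signals of 2376.0, 309.9 and 181.8 in ES, B and T cells, 13.1-fold lower, and Pole, a leading-strand polymerase, 1339.1, 249.5 and 108.8. Among cyclins, CDK inhibitors and E2F factors, equal numbers passed in each direction, 14 of 46 higher and 14 lower. The lower ones included Ccne1 (21.8-fold), which starts S phase, Cdk1 (20.8-fold) and Mycn (at least 35.1-fold). The higher ones were mostly brakes. Cdkn1b, the p27 inhibitor, had 6410.4 in T cells, 4781.3 in B cells and 420.5 in ES cells, and Rbl2, a pocket protein of resting cells, was 16.7-fold higher with 1670.4 in T cells. Btg1, an antiproliferative gene, had 31748.4, 31545.6 and 2321.7. Cdkn2d, Cdkn2c, Rb1, Rbl1, Btg2, Mxd1, Mxd4, Tob1 and Tob2 were between 4.22-fold and 8.58-fold higher, and were named after their values were seen. Gins1, Mycn, Rb1, Rbl1, Mxd1, Mxd4, Tob1 and Tob2 have a probe set within 2-fold. Ccnd2, at 4.57-fold, and E2f2, at 5.75-fold, were the higher genes that promote entry into the cycle.

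DNA repair had 16 of 56 lower and 2 higher, with a median of -0.69. Exo1 and Brca1, of resection and recombination, were at least 18.6-fold and 11.6-fold lower, though both have a probe set within 2-fold, as has Lmna below. Ddb2, which finds ultraviolet damage, had 3166.6 in T cells, 1676.1 in B cells and 254.9 in ES cells, 12.4-fold higher, and Parp3 was 11.4-fold higher. Histone variants and chaperones had 6 of 34 lower and 2 higher, with a median of -0.90. Hmga2, a chromatin protein of embryonic cells, was 24.1-fold and Hat1, which acetylates new histones, 8.37-fold lower, while H3f3b and H3f3a, the genes of the replication-independent histone H3.3, were 14.1-fold and 7.53-fold higher. Genes of the nuclear envelope and pores had 8 of 39 lower and 3 higher, with a median of -1.27. Lmna, the A-type lamin, had 2030.5 in ES cells and 80.0 in T cells, at least 21.4-fold lower, whereas Sun2, which ties the nucleus to the cytoskeleton, had 7269.5 in T cells and 497.8 in ES cells.

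Polycomb and Trithorax subunits, the subject named in the study's title, were spread around the median of all genes. Of 46 measured, 20 lay within 2-fold, 5 (10.9%) were at least 4-fold higher and 4 (8.70%) lower. These shares were near the 10.8% and 10.2% of all measured genes. The median was -0.04, which became 0.14 when probe sets were averaged. Members of 1 complex stood on both sides. Phc1 had signals of 6239.3, 484.4 and 497.6 in ES, B and T cells, 12.5-fold lower, and Phc3, its relative in Polycomb repressive complex 1, had 408.0, 2211.7 and 2528.0, though within 2-fold by another probe set. Ash2l, a core subunit of the MLL complexes, was 6.12-fold lower, while Kmt2a, 1 of their enzymes, was 4.22-fold higher, with 2747.8 in T cells and 650.3 in ES cells.

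RNA regulators divided by function. Of 42 stability and splicing regulators, 9 were lower and 8 higher, with a median of -0.11 that became 0.02 with probe sets averaged. Igf2bp1 and Lin28a, oncofetal RNA-binding genes, were at least 55.1-fold and at least 29.7-fold lower. Zfp36, which marks inflammatory mRNAs for decay, had 7312.2 in T cells, 8858.0 in B cells and 392.5 in ES cells, 18.6-fold higher, and its relatives Zfp36l1 and Zfp36l2 were 4.47-fold and 6.13-fold higher. The splicing regulators Mbnl1 (1672.4 in ES cells and 23488.0 in T cells), Mbnl3 and Celf2 were higher too, each with another probe set within 2-fold. Small RNA pathway and germline genes were lower in 8 of 38 and higher in 1. Rhox5, Mageb16, Tdrd12 and Tex19.1, genes of germ cells, had 6715.2, 3409.4, 1799.4 and 1647.5 in ES cells and were below the floor in both lymphocytes. Tnrc6b, an Argonaute partner, was 8.40-fold higher in T cells, though not by another probe set.

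Matrix and epithelial junction genes had the lowest medians of the 61 classes. Extracellular matrix and heparan sulfate genes were lower in 39 of 52 and higher in 0, with a median of -3.32. All 18 fibroblast markers were above the floor on the ES cell array. The part of feeder fibroblasts in the matrix class, and in the imprinted genes given below, was not tested. Bgn, a matrix proteoglycan, had 8916.5 in ES cells and 3.2 in T cells. Epithelial junctions and keratins were lower in 22 of 38 and higher in 0, with a median of -2.49. Epcam, an adhesion molecule of ES cells and epithelia, had 7736.6, 319.4 and 161.9 in ES, B and T cells, 47.8-fold lower, and Krt18 had 2249.8, 69.6 and 19.6. Imprinted genes were lower in 11 of 26 and higher in 0, with a median of -1.14. Grb10, Igf2, Peg3 and Meg3 led, at 46.5, 42.1, 41.7 and 31.6-fold, the first 3 as minimum folds, and each of the 4 has a probe set within 2-fold.

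In the developmental pathways, members known from lymphocytes and members known from ES cells are given side by side. In the Wnt pathway 9 of 42 were lower and 3 higher, with a median of -0.53. Lef1 had 8013.9 in T cells, 168.7 in B cells and 617.9 in ES cells, and Tcf7l1, the TCF factor of ES cells, 86.5, 30.3 and 1294.8. Of 43 TGF-beta, Nodal and BMP genes, 16 were lower and 3 higher, with a median of -0.55. Inhba, an activin chain, and Bmp4 were at least 95.8-fold and at least 25.7-fold lower. Tgfbr2, the receptor through which TGF-beta restrains T cells, had 8467.3 in T cells, 8968.0 in B cells and 980.9 in ES cells, and Id2 10107.7, 1218.1 and 1189.9. Notch, Hedgehog and Hippo genes were lower in 16 of 43 and higher in 4, with a median of -0.64. The Hippo effectors Yap1 and Tead1 had 5033.3 and 5187.1 in ES cells and 43.2 and 78.2 in T cells. The upstream kinase Lats2 had 2022.5 in T cells and 105.9 in ES cells, and Notch1, Lfng and Mfng were 7.33-fold, at least 7.20-fold and 6.50-fold higher. Cilium genes had 6 of 39 lower and 2 higher, with a median of -0.59. Nuclear receptors had 6 of 35 higher and 4 lower, and their median of 0.30 turned negative under both other scalings. The lower ones, Nr0b1, Esrrb, Nr6a1 and Nr5a2, are orphan receptors of ES cells. Homeobox and Sox genes had 6 of 34 lower and 3 higher, with a median of -0.50, and Hopx, at 10.6-fold higher, and Cux1, at 4.97-fold, joined Satb1 above. Inhba, Tgfbr2, Tead1, Lats2, Lfng, Esrrb, Nr6a1, Nr5a2 and Cux1 each have a probe set within 2-fold.

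The same ES cell array served as the reference for the B cells, so differences of T and B cells from ES cells move together and no overlap of both is given as a result. What was counted is how many T cell differences had no counterpart in B cells. Of the 1332 genes higher in T cells, 187 were within 2-fold of ES cells in B cells, and 7 were 2-fold or more lower there. Those 187 were 1.52% of measured genes. Of the 1252 lower genes, 22 were within 2-fold in B cells, which is 0.178% of measured genes, and 2 were 2-fold or more higher there. Set directly against B cells, 279 of 11194 measured genes (2.49%) were brighter in T cells by 4-fold or more and 207 (1.85%) lower. Of the 187, 137 also passed 4-fold over B cells and 67 passed 8-fold. The other 50 passed 4-fold against ES cells but not against B cells, so for them the B cell value lay between.

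**Figure D4:**
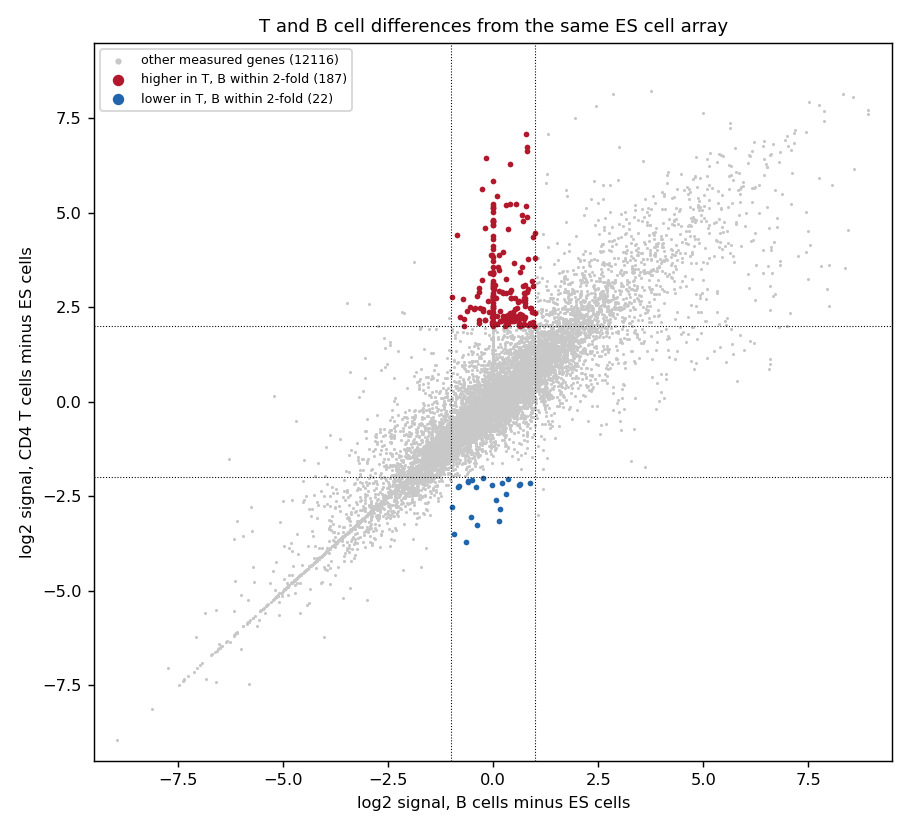
Log2 signal difference of CD4 T cells (vertical) against that of B cells (horizontal), both minus the same ES cell array, for the 12325 genes measured in T or ES cells, with dotted lines at 4-fold on the vertical and 2-fold on the horizontal axis. The 187 red and 22 blue genes differ from ES cells in T cells and lie within 2-fold of them in B cells; both axes share the ES cell values.

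The 187 genes differed from ES cells by a median of 2.74 for T cells but 0.11 for B cells, and the median between T and B cells was 2.63. These medians follow in large part from how the genes were chosen. For 105 of the 187 the ES cell signal was below the floor, and for 73 the B cell signal. Where the ES cell signal was below the floor, the B cell difference is a minimum, and within 2-fold holds for floored values only. Cd3g, for instance, had 162.9 in B cells and 22.4 in ES cells before flooring. Of the 112 with several probe sets, 49 were at least 2-fold higher in T than in ES cells by every one, and 4 had a probe set pointing the other way. At the lower edge, Phactr2, Smpd5 and Cacna2d4 stood just inside 4-fold at 2.00, 2.00 and 2.01, and Gprin3, Dnajb13 and Efr3a just outside at 1.99, 1.99 and 2.00. At the B cell limit, P2rx7, Iqgap2 and Mmp9 were just inside, and Tnfrsf4, Ly75 and Ddx60 just outside with B cell differences of 1.03, 1.04 and 1.05.

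Parts of the antigen receptor and its partners led these genes. Cd3g, the CD3 gamma chain, had 12798.4 in T cells, 162.9 in B cells and 22.4 in ES cells. Cd5, an inhibitory coreceptor, had 10177.0, 166.2 and 40.0, and Bcl11b, a zinc finger factor that commits precursors to the T lineage, 10348.8, 105.0 and 118.1. Among the 187 genes, these are the 3 with the greatest T to B cell differences that have a promoter entry in the RefSeq table, at 6.30, 5.94 and 6.62 on the log2 scale. Their promoters, 250 bases before to 50 after the start of the gene on build GRCm38.p6, are shown for that reason. None of the 3 is rich in CpG by the measure given further below. By that measure 67.7% of measured genes with a promoter entry are CpG-rich, but only 38.6% of the 140 such genes of this set. Capitals mark matches on either strand to motifs searched in all promoters. The core of ETS factors was searched as GGAAG. The site of TCF and LEF factors was searched as CTTTGA. The E-box that E proteins bind was searched as CAGGTG, and the GATA site as AGATAA. RUNX and octamer motifs, which these windows do not hold, were searched as well.
Bcl11b, chr12:108003365-108003664, minus strand: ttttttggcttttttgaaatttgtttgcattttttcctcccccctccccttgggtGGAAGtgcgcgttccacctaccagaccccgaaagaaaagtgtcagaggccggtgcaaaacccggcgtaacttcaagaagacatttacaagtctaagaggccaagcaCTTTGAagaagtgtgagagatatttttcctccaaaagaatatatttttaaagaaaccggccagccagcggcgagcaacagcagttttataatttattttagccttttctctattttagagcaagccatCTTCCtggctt
Cd3g, chr9:44980382-44980681, minus strand: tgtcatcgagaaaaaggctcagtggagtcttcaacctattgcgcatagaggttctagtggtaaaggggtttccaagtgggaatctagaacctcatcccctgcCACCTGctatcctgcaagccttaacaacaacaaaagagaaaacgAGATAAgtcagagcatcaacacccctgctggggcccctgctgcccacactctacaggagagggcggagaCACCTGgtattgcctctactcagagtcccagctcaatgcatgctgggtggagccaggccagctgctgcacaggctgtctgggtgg
Cd5, chr19:10738925-10739224, minus strand: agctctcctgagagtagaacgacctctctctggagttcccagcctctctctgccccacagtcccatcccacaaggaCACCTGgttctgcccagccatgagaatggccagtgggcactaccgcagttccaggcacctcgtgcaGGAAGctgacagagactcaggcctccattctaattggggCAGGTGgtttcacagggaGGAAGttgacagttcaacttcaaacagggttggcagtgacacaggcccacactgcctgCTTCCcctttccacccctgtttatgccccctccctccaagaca

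In these windows the search found 2 ETS cores and 1 TCF/LEF motif for Bcl11b, 2 E-boxes and 1 GATA motif for Cd3g, and 3 ETS cores and 2 E-boxes for Cd5. The Cd3g window holds 4 CpG dinucleotides and that of Cd5 holds 3, with observed over expected CpG ratios of 0.18 and 0.13. The Bcl11b window holds 9, a ratio of 0.65, but its GC content is 43.0%. A match is a description of the letters and not a binding site.

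Other genes of antigen recognition followed. Cd28 and Ctla4, the activating and inhibitory receptors of the same ligands, had 9364.8 and 3437.5 in T cells, against 166.7 and 161.9 in B cells and 15.5 and 16.3 in ES cells. Icos, a further costimulatory receptor, had 4135.8, 100.5 and 45.1, so that all 3 were at least 36.2-fold higher in T than in ES cells. Cd247, the zeta chain, was at least 78.2-fold higher than in ES cells and 59.5-fold higher than in B cells. Zap70, the kinase that docks on it, had 3099.9, 163.0 and 101.7, and Trat1 and Sh2d1a, adaptors of the receptor and of SLAM receptors, had 2644.0 and 2557.4 in T cells and were below the floor on both other arrays. Cd6 and Cd96, adhesion receptors of T cells, had 3565.2 and 3061.9 in T cells and were likewise below the floor elsewhere. Cd247 and Zap70 each have a probe set within 2-fold of ES cells.

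Further genes were less tied to the receptor. Ikzf2, the Ikaros factor Helios, had 5684.3 in T cells, 71.7 in B cells and 114.3 in ES cells. Tbc1d4, a Rab regulator of glucose transporter traffic, had 3553.2, 137.9 and 78.0, and Ppm1h, a phosphatase that acts on Rab proteins, 4654.8, 275.0 and 157.3. Nsg2, known as an endosomal protein of neurons, had 3725.2, 130.3 and 98.5. Ramp1, a partner of the receptor for the neuropeptide CGRP, had 2626.4, 46.1 and 85.1, Dapl1 2593.8, 65.8 and 14.7, and Cxcr6, a chemokine receptor of tissue-homing T cells, 3272.4, 117.8 and 134.6. In each of these the T cell value was the highest, as the definition of the set requires, and both others were at 275.0 or below. Ikzf2 and Ramp1 have another probe set within 2-fold.

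**Figure D5:**
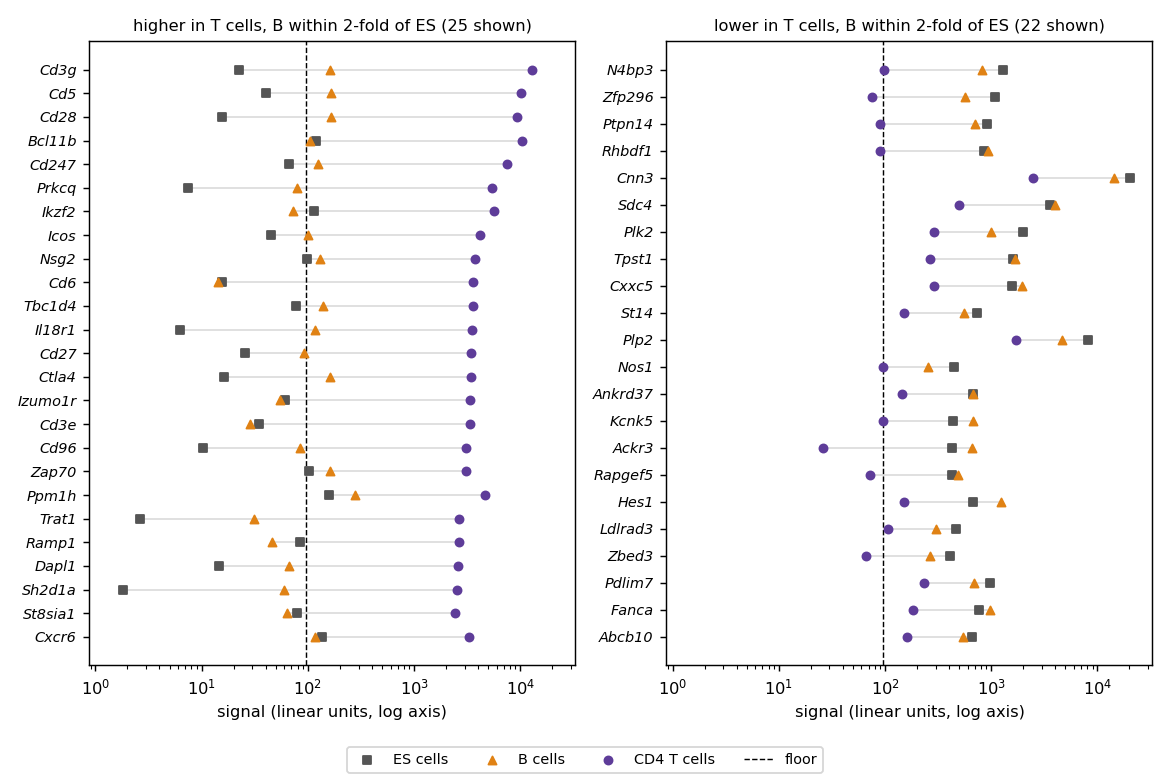
Signal on the ES cell (squares), B cell (triangles) and CD4 T cell (circles) arrays, on a log axis in linear units, for the 25 genes furthest above ES cells among those within 2-fold in B cells, clone-type names and T cell receptor segments left out (left) and for all 22 lower ones (right), with the floor dashed. On the left the T cell value is 2440.2 or more in each gene. On the right the T cell value is the lowest of the 3, as the definition of the set requires.

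By class, 52 of the 187 belonged to the functional classes, which hold 2302 of the 18193 genes. They are named here in the classes with most members, chosen after their values were seen. Over all measured genes the share in this set was 1.52%. It was 8 of 28 measured TNF family genes, 5 of 30 cytokine receptor chains, 4 of 29 chemoattractant receptors and 4 of 35 nuclear receptors. The lists were drawn up with earlier results known, so these counts describe the lists only. The TNF family held 8 of the 52. Besides Cd27, these were Tnfrsf25, a costimulatory death receptor, with 1560.5 in T cells, 74.5 in B cells and 67.3 in ES cells, and Tnfsf11, RANK ligand, with 1072.9, 10.9 and 115.0. Fasl, Tnfsf10, Tnfrsf9, Tnfsf8 and Tnfsf14 had between 451.6 and 746.3 in T cells and at most 128.2 on the other arrays. The interleukin receptors Il2rb, Il18rap, Il2ra and Il1r2 joined Il18r1, with 1132.7, 638.7, 467.5 and 416.2 in T cells. Il2ra is the high-affinity chain of regulatory and activated T cells. Chemoattractant receptors gave Ptger2, Ccr2 and Gpr34 beside Cxcr6, and the nuclear receptor class gave Nr4a3, Nr4a2, Rora and the circadian factor Dbp, at 770.7, 634.4, 1028.5 and 892.3. Tnfsf10, Tnfrsf9, Il18rap, Ccr2, Nr4a3, Nr4a2 and Rora have a probe set within 2-fold of ES cells.

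Kinases and signalling genes added Txk, Prkcq and Prkch, the last with 3312.2 in T cells, 222.5 in B cells and 225.7 in ES cells. Camk4, a calcium-dependent kinase, had 1890.2, 49.5 and 54.3, and P2rx7, an ATP-gated channel, 2099.9, 188.2 and 61.3. Ubash3a, a suppressor of receptor signalling, had 1057.3, 103.8 and 82.0. Nucleotide enzymes gave Nt5e, Xdh and Ampd1, and integrins gave Itgb8 and Itgae, chains known for activating TGF-beta and for binding E-cadherin, with 693.6 and 449.2 in T cells and below the floor elsewhere. Camk4, P2rx7, Nt5e and Itgae have a probe set within 2-fold of ES cells. The leukocyte actin regulators, the MHC class I genes and the Stat and Irf factors had median differences between T and B cells of -0.02, 0.01 and 0.25. Markers of other cells among the 187 were Cd209a of dendritic cells and Cd8b1 of CD8 T cells, at 581.3 and 715.6 in T cells. None of the 14 macrophage or 13 B cell markers was among them, but all 14 macrophage markers were brighter in T than in B cells, by 2.04 to 3.32-fold. Lyz2, the lysozyme of macrophages, was 3.32-fold brighter in T than in B cells and within 2-fold of ES cells in B cells. The part of macrophage RNA in the 187 genes was not tested.

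The 22 genes lower in T cells and within 2-fold in B cells had a median difference of -2.24 against ES cells and -2.47 against B cells, and 14 also passed 4-fold against B cells. The selection sets these medians in large part. Cnn3, a calponin, had 2448.5 in T cells, 14279.6 in B cells and 20426.3 in ES cells. Sdc4, a heparan sulfate proteoglycan of adhesion sites, had 498.2, 3972.6 and 3549.5, and Hes1, a Notch target that represses transcription, 150.4, 1234.2 and 668.2. Cxxc5, a DNA-binding protein with a CXXC finger, had 286.3, 1938.1 and 1565.4, and Plp2, a membrane proteolipid, 1722.7, 4606.3 and 8212.7. In all of these the T cell signal was the lowest of the 3, as the definition of the set requires. The phosphatase gene Ptpn14, the rhomboid-like gene Rhbdf1, the zinc finger gene Zfp296 and the scavenging chemokine receptor gene Ackr3 were below the floor in T cells. Plk2, a kinase of the cell cycle, was 6.89-fold lower in T than in ES cells, and Fanca, of DNA crosslink repair, 4.16-fold. Ptpn14, Plk2 and Fanca have a probe set within 2-fold. N4bp3 had the greatest difference, 13.2-fold, with 98.3 in T cells, 827.0 in B cells and 1294.6 in ES cells.

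Promoter sequence, which the comparison did not use, differed between the sets. RefSeq promoter windows matched 9942 of the 12325 measured genes, 1037 of the higher and 985 of the lower ones. A window was called CpG-rich at a GC content of at least 50% and an observed over expected CpG ratio of at least 0.6. By that measure 67.7% of measured genes had a CpG-rich start, against 47.1% of genes higher in T cells, 63.5% of lower ones and 70.2% of those within 2-fold. Among the higher genes that were within 2-fold in B cells it was 38.6% of 140, and among those higher in both lymphocytes 45.9% of 698. Classes differed widely. None of 16 higher TNF family genes had a CpG-rich start, nor did 26 of 29 higher interferon-stimulated genes, but all 12 higher cyclin, CDK inhibitor and E2F genes did, as did 9 of 11 higher diacylglycerol, Ras and ERK genes. Among lower genes the share was 11 of 24 for extracellular matrix and 11 of 14 for DNA repair. With a ratio of at least 0.75 as the limit the shares were 49.7% of measured genes, 32.5% of higher and 43.5% of lower ones.

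Motif counts differed less. The RUNX motif was searched as TGTGGT and the octamer as ATGCAAAT on both strands, each motif on its own, so that a window can count for several. The ETS core was in 75.4% of all measured promoters and in 76.1% of those of higher genes. That core was in 70% of the 140 promoters of genes higher in T cells and within 2-fold in B cells. RUNX motifs were in 12.6% of measured, 16.01% of higher and 17.9% of the 140 promoters of genes higher in T cells and within 2-fold in B cells. For TCF/LEF the shares were 11.8%, 13.8% and 18.6%, for GATA 6.27%, 8.39% and 7.86%, for the E-box 17.7%, 20.6% and 22.9%, and for the octamer 1.34%, 2.31% and 2.86%. Over all 27025 promoters of the table, measured or not, the RUNX, TCF/LEF and GATA shares were 16.9%, 16.2% and 11.4%, above those of the measured genes, and 34.1% were CpG-rich.

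Neighbouring genes were also compared. Of all measured genes, 10.8% were higher and 10.2% lower, and how many neighbours would fall together in a random order was not computed. With 12307 measured genes placed by their order in the RefSeq annotation, 44 runs of 3 or more neighbours were all higher, holding 164 genes, and 25 runs, holding 81 genes, were all lower. The longest was a run of 10 MHC genes, from H2-DMa through Psmb9, Tap1, Psmb8 and Tap2 to H2-Eb1. It holds MHC class II genes, which B cells and macrophages express, and the T and B cell signals of H2-Aa were 18638.3 and 46173.9, those of H2-Ab1 6819.3 and 36257.2. Markers of both cell types were above the floor on the T cell array, and their part in the run was not tested. A run of 8 Gimap GTPases, which regulate lymphocyte survival, followed, with differences from 3.47 to 7.93. The 6 neighbouring Trim genes, from Trim34a to Trim30d, relatives of the retrovirus restriction factor Trim5, were higher by 3.46 to 5.68, and 6 genes around Slfn1 and Slfn2 by 2.21 to 5.58. Stat4, Nab1, Nemp2, Mfsd6 and Inpp1 formed a run of 5. On the lower side, 6 neighbouring Bex and Tceal genes of the X chromosome were lower by 2.12 to 8.13, and the imprinted RNAs Meg3, Rian and Mirg stood together. Related neighbours can share probe sequence, so their values may not be separate.

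Some runs consisted of genes within 2-fold in B cells. Cd28, Ctla4 and Icos are neighbours, and all 3 belonged to that set. Dctn6, Leprotl1 and Saraf, a dynactin subunit, a regulator of receptor traffic and a brake on store-operated calcium entry, were the other such run of 3. Saraf had 13407.2 in T cells, 1619.9 in B cells and 2821.1 in ES cells, Leprotl1 5207.5, 825.8 and 707.5, and Dctn6 9249.6, 2672.0 and 1903.8. Of the run Cd5, A430093F15Rik, Cd6 and Slc15a3, the first 3 were in the set, and Slc15a3 had nearly equal signals in T cells, 564.0, and B cells, 571.1.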

How the data were processed

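Messenger RNA of 3 cell populations was measured on 1 array each. The intensity values deposited by the authors are linear, 1 per probe set, and were made with Affymetrix Expression Console per the submitters' processing notes. Version, algorithm and scaling are not given in sources used here. Probe sets were named through GEO's array annotation and their Entrez IDs checked against RefSeq's GRCm38.p6 gene table (34741 of 34945 found, 0 changed); 932 probe sets with several symbols and 9160 with none were left out. Column medians were 88.8 for ES, 101.8 for B and 97.0 for T cells. Each gene was read from the probe set whose mean of the 3 arrays was highest. Values were floored at the 50th percentile of all values before log2, and genes were counted at 4-fold with the brighter array above the floor. The 61 classes with 2520 entries (206 not analysed here), the pairs, the markers and the naming rule were chosen with earlier results of these data known. The rule named the 4 members of each class with the greatest difference and any at least 4-fold against the class median, and the 25 greatest differences in each direction among genes within 2-fold in B cells and among genes of no class, without clone-type names or segments of antigen receptors (11 of the 187). It also took all pairs, genes in runs of 3 or more neighbours and 3 promoters. Genes named for a limit or an edge, and genes beyond those 25 that are grouped by function, were chosen after their values were seen. The counting code was run on simulated data with large changes set in bright genes and little noise. Such a run checks the code only and does not measure the error of the counts. No test was possible with 1 array a group. Computations used Python 3.11.15, pandas 2.3.3 and numpy 2.4.6. Promoter windows are RefSeq's.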

Additional observations from a re-analysis of the deposited data

Results flagged for a closer look

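Genes on opposite sides of ES cells in T and B cells were looked at again, since both differ from the ES cell array by at least 4-fold but in opposite directions; the difference between both lymphocytes was not tested, as each was 1 array. Thy1, the surface protein Thy-1 of T cells and fibroblasts, was higher by 2.61 in T cells and lower by 3.48 in B cells, a T minus B cell difference of 6.09 on the log2 scale, with signals of 7185.1, 105.6 and 1179.7 in T, B and ES cells. Igfbp4, a binding protein of insulin-like growth factors, differed by 5.54 (8073.7, 173.8 and 1345.9), with 6 probe sets between 2.03 and 5.77. Tesc, the calcium-binding tescalcin, differed by 4.75 (2561.1, 31.4 and 639.7), Pxylp1, a phosphatase of proteoglycan synthesis, by 4.55 (2229.6, 72.5 and 426.5) and Tgfbr3, the TGF-beta coreceptor betaglycan, by 4.45 (2079.7, 70.8 and 410.5). Pxylp1 and Tgfbr3 each have another probe set with no difference above the floor.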

How the results depend on the processing

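Alternatives changed counts more than directions. Of the 421 named genes and the 61 class medians, 0 reversed past a call under any scaling, floor or probe set rule; class medians near 0 changed sign in 5 classes under quantile normalization, 4 under scaling to the 75th percentile, 3 with probe sets averaged, and 1 each with a floor at the 35th or 65th percentile. Beyond the probe set SD, 3 class medians moved with the floor at the 65th percentile (chemokine receptors from 3.39 to 2.02, TNF family from 2.55 to 1.39, SLAM family from 4.31 to 2.94) and 3 with no floor (FGF genes from -1.52 to -2.77, epithelial junctions from -2.49 to -3.74, imprinted genes from -1.14 to -2.54). With the floor at the 65th percentile imprinted genes, at -1.92, lay below epithelial junctions, at -1.72. With no floor, FGF genes at -2.77 and imprinted genes at -2.54 lay below DNA replication genes, at -1.73, so the list of lowest classes changed. Of the named genes, 243 moved by more than the probe set SD of 1.09 with the floor at the 65th percentile, 136 with probe sets averaged, 85 with no floor and 1 under each scaling. The 1332 higher genes became 770 when every probe set had to pass, 2802 at 2-fold and 665 at 8-fold. The 1252 lower genes became 664, 3041 and 522 in the same order, and 784 with the floor at the 65th percentile. The 187 genes higher in T cells and within 2-fold in B cells became 102, 700 and 69. The 22 lower ones were least stable: 12, 435 and 5 in the same order, 83 with no floor and 16 added, 37 and 8 with floors at the 35th and 65th percentiles, 14 with probe sets averaged, 12 with B cells within 1.5-fold, and 14 with T cells also 4-fold from B cells. A stricter fold or probe set rule gives fewer genes by construction; for the floors the cause was not tested. Without replicate arrays no sample could be left out, and no paired analysis was possible because each group has 1 array. Signals near the floor carry no order, and a general change in RNA content per cell cannot be seen after scaling.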

Other observations

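Among genes of no functional class, marker list or pair, clone-type names and receptor segments left out, Ms4a4b, a membrane protein of T cells, stood furthest above ES cells, with signals of 28495.5, 1275.2 and 4.6 in T, B and ES cells. Gimap4, a GTPase of lymphocytes, had 23211.5, 17237.8 and 29.3, and Ms4a6b, a relative of Ms4a4b, 19003.5, 3019.2 and 62.6. The MHC class II gene H2-Aa came next, then Kbtbd11, which has a probe set within 2-fold. Further genes of the 25 highest were chosen for their known roles. Ablim1, an actin-binding LIM protein, had a signal of 54.8 in ES cells, against 11302.4 in T cells and 8284.8 in B cells. Ripor2, an inhibitor of RhoA in leukocyte migration, had 8140.1, 8268.0 and 39.6 in T, B and ES cells, and Selplg, the P-selectin ligand, 6433.9, 1688.2 and 9.9. Ipcef1, a partner of cytohesins, had 7879.8, 1130.2 and 5.2, and Tmem71, a membrane protein, 6240.1, 2092.4 and 1.6. Ablim1 and Ipcef1 have a probe set within 2-fold. Dusp2, a nuclear phosphatase of ERK, had 6117.9, 8283.7 and 79.9. Fcna, a ficolin of macrophages, had 8075.8 and 3243.7 in T and B cells, and the part of macrophage RNA in it was not tested.

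On the lower side, the genes named here were chosen from the 25 lowest, many of them embryonic, and most were below the floor in both lymphocytes. Trim71, an RNA-binding ubiquitin ligase of early embryos, had 5418.9 in ES cells and Fbxo15, an F-box gene of ES cells, 4975.5, both far below the floor in lymphocytes. Ooep and Dppa2, of oocytes and early embryos, had 6552.6 and 5392.4 in ES cells, and Crabp1, a retinoic acid carrier, 6649.3. Igfbp2, Cpe and Trh, which encode secreted or prohormone-processing proteins, had 11505.1, 4227.9 and 4257.7 and were below the floor in both lymphocytes, though Cpe has a second probe set that did not differ. Mybl2, a transcription factor of dividing cells, had 4073.4, 187.9 and 98.8 in ES, B and T cells. Ctbp2, a corepressor, was 45.3-fold lower, with 16215.0, 169.0 and 357.6. Fkbp9, Pcolce and Fstl1, also among the lowest, had 8700.5, 4812.4 and 4448.9 in ES cells. Fibroblast markers were above the floor on the ES cell array, and the part of feeder fibroblasts in the lower genes was not tested.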
